A study of Mus musculus with 2 samples.

Results

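The 10 microRNA (miRNA) genes described here are markers of liver, gut and muscle, tissues that a forebrain dissection does not aim to collect. They were chosen by symbol, as Mir122, Mir192, Mir194-1 and Mir194-2 for liver and gut and as Mir206, Mir208a, Mir208b, Mir499, Mir133a-1 and Mir1a-1 for muscle, and all 10 of 10 had a row among the 1973 miRNA genes measured. The libraries come from forebrain of B6NCrl mouse embryos at embryonic day 16.5, taken as total RNA from healthy embryos of both sexes pooled together and sequenced as small RNA. Replicate 2 is a pool of 41 embryos and replicate 1 a separate pool whose number of embryos the labels do not give. No mutation, transgene or treatment is named for either pool. The 2 libraries form 1 group, so no condition was compared with another.

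A miRNA gene is transcribed as a precursor that folds into a hairpin, and the hairpin is cut into a pair of short arms, named 5p and 3p, that guide silencing of messenger RNAs. Bases 2 to 8 of an arm, the seed, carry most of the pairing with targets. Mir122 is the dominant miRNA of hepatocytes, where it acts in lipid metabolism, and the miRNAs of Mir192, Mir194 and Mir215 are abundant in the epithelium of gut, liver and kidney. In muscle, Mir1 and Mir133 genes are expressed in heart and skeletal muscle together, and Mir206 mainly in skeletal muscle. Mir208a, Mir208b and Mir499 sit inside myosin heavy chain genes and are expressed with them in heart and slow muscle.

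The seeds show which of these genes could act on shared targets, and are given in capitals in the mature sequences from RefSeq (GRCm38.p6), 5′ to 3′. The arms of Mir192 and of its relative Mir215 have an identical seed, as do those of Mir208a and Mir208b. The Mir499 arm shares the first 6 bases of that seed and differs at the last. The Mir206 arm carries the seed known for the Mir1 family.
mmu-miR-192-5p: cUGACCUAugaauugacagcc
mmu-miR-215-5p: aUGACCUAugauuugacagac
mmu-miR-208a-3p: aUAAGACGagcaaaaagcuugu
mmu-miR-208b-3p: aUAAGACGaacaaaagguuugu
mmu-miR-499-5p: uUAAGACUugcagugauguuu
mmu-miR-206-3p: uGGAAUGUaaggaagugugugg

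Counted from 1 at the 5′ end, the Mir208a and Mir208b arms differ at 3 of 22 positions, G10A, A16G and C18U with the Mir208a base first. The Mir192 and Mir215 arms differ at 3 of 21 positions, C1A, A12U and C20A with the Mir192 base first. Each of these 6 arms occurs in a single miRNA gene of the GENCODE M21 annotation, so a full-length read of it can be placed at that gene among miRNA genes.

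The Mir194 genes are different, because their 5p arm is the same in both hairpins. The stretch that the hairpins share, in capitals below, is 22 bases long and is exactly that arm. A full-length read of it fits both genes, and the tables keep such multimapping reads in a row of their own, outside the gene counts. Stretches of 22 bases or more are shared with another miRNA gene by 4 of the 10 genes, which are the Mir194 genes, Mir133a-1 and Mir1a-1.
Mir194-1: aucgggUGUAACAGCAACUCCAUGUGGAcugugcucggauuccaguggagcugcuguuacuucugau
Mir194-2: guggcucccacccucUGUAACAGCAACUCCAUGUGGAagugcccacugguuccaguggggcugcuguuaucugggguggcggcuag

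The 3p arms can be told apart. They differ at 4 of 22 positions, in capitals below, as A8G, C19U, U20C and C22G with the Mir194-1 base first.
mmu-miR-194-1-3p: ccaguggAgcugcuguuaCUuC
mmu-miR-194-2-3p: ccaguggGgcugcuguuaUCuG

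Values are counts of reads on the strand of the gene, and CPM is counts per 1000000 gene-strand counts of the library. Replicate 2 held 4158686 gene-strand counts and replicate 1 held 5060112, and multimapping reads made up 43.3% of all reads in replicate 2 and 40.5% in replicate 1. With a limit of 3 counts, a gene at 0 can reach 0.721 CPM in replicate 2 or 0.593 CPM in replicate 1 by reads with a unique place. Intervals are 95% and, like this limit, cover counting error only. The RefSeq arms found for 8 of the 10 genes were 21 to 23 bases long, so levels were set side by side without a term for length. Forebrain markers with rows (10 of 11 named) summed to 24189 CPM in replicate 2 and 25531 CPM in replicate 1, and 9 of the 10 had 5 counts or more in each library. Mir137 alone gave 11457 CPM of this sum in replicate 2 and 13239 CPM in replicate 1. The markers Mir9-2 and the Mir124a genes averaged only 1.07 to 4.27 CPM each.

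The liver and muscle genes together held 977 counts in replicate 2 and 1472 in replicate 1. That is 0.0235% of gene-strand counts in replicate 2 and 0.0291% in replicate 1, where the 95% limits (Clopper-Pearson, exact) were 0.0220% to 0.0250% for the replicate 2 share and 0.0276% to 0.0306% for the replicate 1 share. At least 5 counts in both libraries were present for 8 of the 10 genes, beside 22.2% of all miRNA genes, and the other 2 had no count in either library, beside 64.4% of all miRNA genes. Nothing is read from these shares, since the genes were picked as well-studied miRNAs. In whole tissue, fewer cells of a type and less RNA per cell cannot be told apart. By counts, the liver and gut genes summed to 818 in replicate 2 and 1238 in replicate 1, and the muscle genes to 159 in replicate 2 and 234 in replicate 1.

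**Figure D1:**
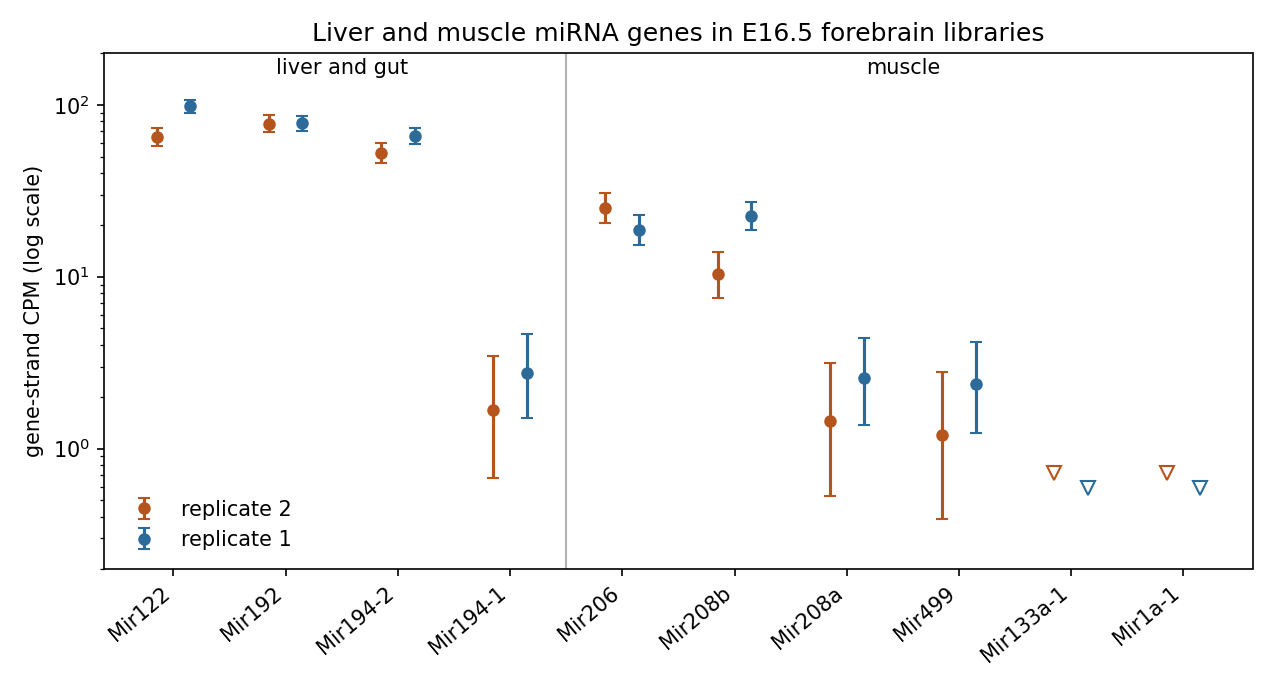
Gene-strand CPM (log axis) of the 10 genes, with replicate 2 and replicate 1 as separate points, bars for exact Poisson 95% intervals and open triangles for the limit that a count of 0 allows. That limit holds only for reads with a unique place, and Mir133a-1 and Mir1a-1 share long stretches with other miRNA genes. Mir122, Mir192 and Mir194-2 lie between 52.4 and 97.8 CPM, Mir206 and Mir208b between 10.3 and 25.2 CPM, Mir194-1, Mir208a and Mir499 between 1.20 and 2.77 CPM, and Mir133a-1 and Mir1a-1 have no count.

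Mir122 (ENSMUSG00000065402.1, chromosome 18, 65248861 to 65248926, mm10, plus strand), the hepatocyte miRNA, overlaps an exon of the annotated gene AC157910.3. It had 270 counts or 64.9 CPM in replicate 2 and 495 counts or 97.8 CPM in replicate 1. The Poisson intervals, 57.4 to 73.1 CPM in replicate 2 and 89.4 to 107 CPM in replicate 1, do not overlap, and Mir122 was the gene of the set with the highest count in replicate 1 but not in replicate 2. It averaged 81.4 ± 23.3 CPM (SD, n = 2) and ranked 203 among all genes, above 235 of the 438 genes that reached 5 counts in each library. Its longest stretch in common with any other miRNA gene was 12 bases.

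Mir192 (ENSMUSG00000065523.1) and Mir194-2 (ENSMUSG00000065582.1), miRNAs of gut, liver and kidney epithelium, lie 201 bases apart from start to start on the plus strand of chromosome 19, at 6264844 to 6264932 and 6264643 to 6264728. Mir192 had 323 counts or 77.7 CPM in replicate 2 and 395 counts or 78.1 CPM in replicate 1. In CPM, which carries no TMM scaling, the 2 pools were almost level for this gene, and its mean of 77.9 ± 0.278 CPM (SD, n = 2) ranked 209. The Poisson intervals of Mir192, 69.4 to 86.6 CPM in replicate 2 and 70.6 to 86.2 CPM in replicate 1, are much wider than that SD. Mir194-2 had 218 counts or 52.4 CPM in replicate 2 and 334 counts or 66.0 CPM in replicate 1. It averaged 59.2 ± 9.61 CPM (SD, n = 2), below Mir192 in both libraries. Mir192 made up 59.7% of this pair in replicate 2 (exact Clopper-Pearson interval 55.4% to 63.9%) and 54.2% in replicate 1 (50.5% to 57.8%). The intervals of that share overlap. The Mir194-2 value counts only reads that can be placed at 1 locus, such as those of its 3p arm, and its level is uncertain for that reason.

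Mir194-1 (ENSMUSG00000065581.1) lies on chromosome 1 at 185313319 to 185313385, in an intron of 2010103J01Rik and opposite to Iars2, and has Mir215 at 262 bases from start to start. It had 7 counts or 1.68 CPM in replicate 2 and 14 counts or 2.77 CPM in replicate 1. By uniquely placed reads Mir194-2 had 31.1 times the counts of Mir194-1 in replicate 2 and 23.9 times in replicate 1. Mir194-2 thus made up 96.9% of the Mir194 counts in replicate 2 (93.7% to 98.7%) and 95.98% in replicate 1 (93.3% to 97.8%). Reads that lie wholly within the shared 5p arm fit both genes and so cannot be placed at either, while reads that reach beyond it, or come from the 3p arms printed above, can. The ratio says nothing of the shared arm. The opposite strand of Mir194-1 had 1 read in replicate 2 and 0 in replicate 1, and the other 9 genes had no opposite-strand read in either library.

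Mir206 (ENSMUSG00000065559.1, chromosome 1, 20679010 to 20679082, plus strand), a skeletal muscle miRNA that in mice acts in regeneration of the neuromuscular synapse, overlaps an exon of Gm28653. It had 105 counts or 25.2 CPM in replicate 2 and 95 counts or 18.8 CPM in replicate 1. It was the muscle gene with the highest mean, 22.01 ± 4.58 CPM (SD, n = 2), at rank 278. Mir133b, a muscle miRNA that lies 3759 bases away on the same strand and overlaps an exon of the same gene, had 2 counts in replicate 2 and 3 in replicate 1. Mir206 made up 98.1% of this pair in replicate 2 (93.4% to 99.8%) and 96.9% in replicate 1 (91.3% to 99.4%). Mir133b shares 21 bases with Mir133a-1 and Mir133a-2, and its mature arms as listed occur in no other miRNA gene. Reads shorter than the arms could still map to several loci.

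The genes inside myosin heavy chain genes differed in level. The 3p arms of Mir208a and Mir208b are closely related, while the Mir499 5p arm shares only a part of their seed. Mir208b (ENSMUSG00000077928.1, chromosome 14, 54975700 to 54975776, minus strand) lies in an intron of Myh7, the myosin of slow muscle and embryonic heart ventricle. It had 43 counts or 10.3 CPM in replicate 2 and 114 counts or 22.5 CPM in replicate 1. Its Poisson intervals, 7.48 to 13.9 CPM in replicate 2 and 18.6 to 27.1 CPM in replicate 1, do not overlap. Mir208a (ENSMUSG00000065432.1, chromosome 14, 54949060 to 54949142, minus strand), in an intron of the cardiac myosin gene Myh6, had 6 counts or 1.44 CPM in replicate 2 and 13 counts or 2.57 CPM in replicate 1. Mir499 (ENSMUSG00000076312.1, chromosome 2, 155622880 to 155622958, plus strand), in an intron of Myh7b, had 5 counts or 1.20 CPM in replicate 2 and 12 counts or 2.37 CPM in replicate 1. Mir208b made up 87.8% of the Mir208 counts in replicate 2 (75.2% to 95.4%) and 89.8% in replicate 1 (83.1% to 94.4%), so it exceeded Mir208a in both pools, with intervals of the share that overlap. The longest stretch that Mir208a and Mir208b share, with the strands opposite, is 14 bases, and no other miRNA gene shares a longer one with either.

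Mir1a-1 (ENSMUSG00000070144.1, chromosome 2, 180389048 to 180389124) and Mir133a-1 (ENSMUSG00000065399.1, chromosome 18, 10782909 to 10782976) had 0 counts in both libraries. These genes encode the most abundant miRNAs of striated muscle, but their counts here cannot give a level. Mir1a-1 shares 28 bases with Mir1a-2 and with the opposite strand of Mir1b, and Mir133a-1 shares 31 bases with Mir133a-2, which exceeds the length of a mature arm. The 5p arm of Mir1a-1 occurs in no other miRNA gene, and for reads of that arm the count of 0 does allow at most 0.721 CPM in replicate 2 and 0.593 CPM in replicate 1. Mir133a-2, which lies 9331 bases from Mir1a-1 from start to start, also had 0 counts in both.

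Ordered by mean level, the genes were Mir122, Mir192, Mir194-2, Mir206, Mir208b, Mir194-1, Mir208a and Mir499, followed by the genes at 0. Mir122 and Mir192 overlapped and changed places between the libraries, with Mir192 the higher in replicate 2 and Mir122 the higher in replicate 1. Mir206 and Mir208b likewise overlapped and changed places, with Mir206 the higher in replicate 2. Mir194-1, Mir208a and Mir499 overlapped but kept their order in both libraries. The values left gaps between Mir192 and Mir194-2, between Mir194-2 and Mir206, and between Mir208b and Mir194-1. Overlap in this order is of the library values, not of their intervals. In replicate 1 the Poisson intervals of Mir192 (70.6 to 86.2 CPM) and Mir194-2 (59.1 to 73.5 CPM) did overlap. Reads of the shared 5p arm are also missing from the Mir194 values, so the true places of Mir194-2 and Mir194-1 in this order are uncertain. The median over the 438 genes that reached 5 counts in each library was 66.7 CPM. By mean of uniquely placed reads, Mir122 and Mir192 stood above it and the other 6 detected genes below it.

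**Figure D2:**
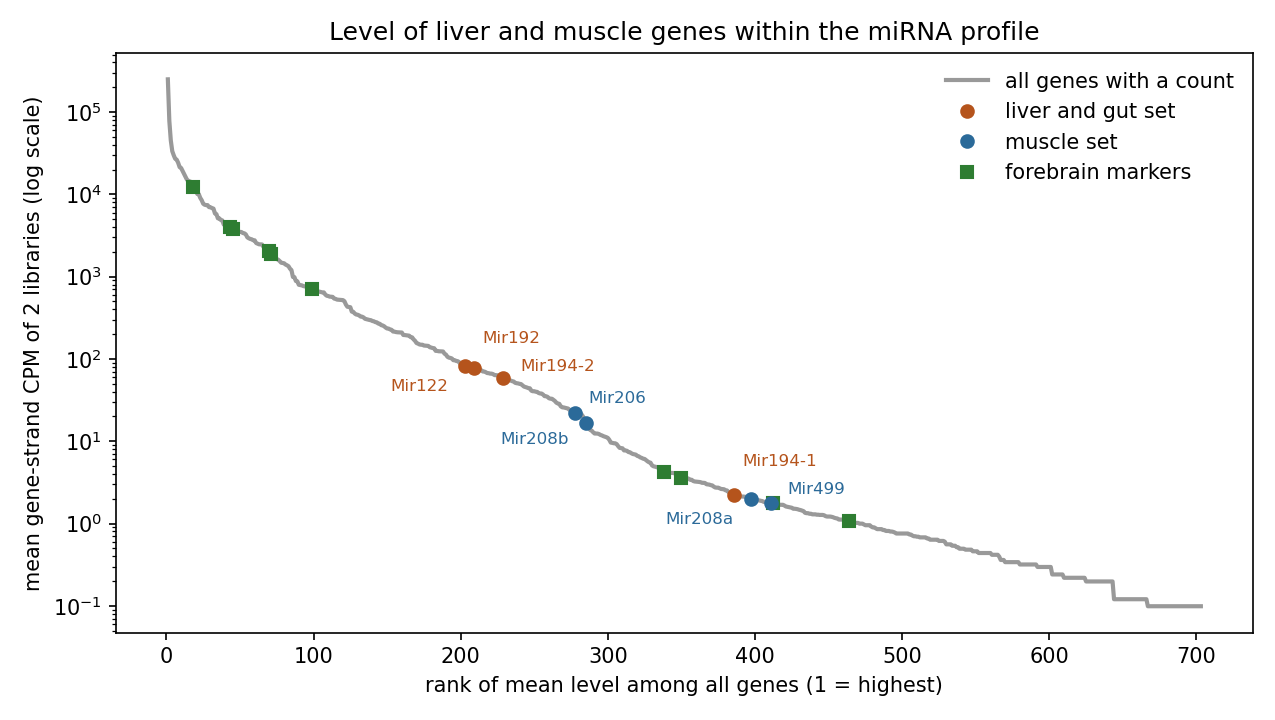
Mean gene-strand CPM of the 2 libraries (log axis) against rank for the 703 genes with a count (line), with the liver and gut genes, the muscle genes and the forebrain markers as points. The liver and muscle genes lie between ranks 203 and 411, and the forebrain markers between ranks 18 and 464, with the multi-copy Mir9-2 and Mir124a genes at the low end.

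The gene with the nearest pair of levels was sought for each detected gene among these 438, by Euclidean distance over the 2 values of log2(CPM + 1). Mir7j lay nearest to Mir122, at 0.10, with 288 counts in replicate 2 and 478 in replicate 1. Gm23935 lay nearest to Mir192 at 0.05, Mir326 to Mir194-2 at 0.16, Mir1968 to Mir206 at 0.15 and Mir216b to Mir208b at 0.46. Mir6928, Mir6991 and Gm23388 lay nearest to Mir194-1, Mir208a and Mir499, at 0.07 to 0.08. Over 2 libraries such a likeness says only that the levels are close.

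The libraries were then compared gene by gene with an exact binomial test (two-sided) on library totals scaled by TMM, the trimmed mean of M values, and Benjamini-Hochberg adjustment over the 466 genes whose counts summed to 10 or more. The test compares 2 libraries of 1 group and allows for no spread between pools. It called 45.3% of all tested genes, 23.4% as higher and 21.9% as lower in replicate 2. The split depends on the scaling: 109 genes were called higher and 102 lower with TMM, against 67 higher and 155 lower with unscaled totals. Of the 8 liver and muscle genes tested, 1 was called higher and 2 lower, a share near that background, and with unscaled totals 0 were called higher and 3 lower. Their median log2 ratio was -0.49, beside 0.01 over all tested genes, and 6 of the 8 were below 0, beside 48.9% of all tested genes. Among these 6, the intervals of Mir194-1, Mir194-2, Mir208a and Mir499 include 0 with TMM, so no shift of the set is read from the signs.

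Mir208b had the largest difference of the called genes of the set. It was lower in replicate 2 by a log2 ratio of -0.97 (95% interval -1.52 to -0.46), and the exact binomial test gave an adjusted p of 0.000287. Mir122 was also lower in replicate 2, with a log2 ratio of -0.45 (-0.67 to -0.23) and, by the exact binomial test, an adjusted p of 0.000109. Mir206 was higher in replicate 2, with a log2 ratio of 0.57 (0.16 to 0.99) and, by the exact binomial test, an adjusted p of 0.0128, or 0.43 and 0.0771 with unscaled library totals, which ends the call. Mir206 and Mir208b had opposite signs under both scalings. Of the 4 muscle genes tested, 3 had a ratio below 0, and the median log2 ratio of the 4 was -0.69, beside 0.01 over all tested genes. That median lies between the ratios of Mir208a (-0.63) and Mir499 (-0.76), which had 5 to 13 counts a library and intervals that include 0. It is therefore not read as a shift of the muscle genes.

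The remaining genes were not called. Mir192 had a log2 ratio of 0.14 (-0.08 to 0.35), which turned to -0.0069 with unscaled totals. Its cluster neighbour Mir194-2 had a ratio of -0.19 (-0.44 to 0.06), and the exact binomial test gave an adjusted p of 0.247. With unscaled totals it was -0.33 with an adjusted p of 0.0180 by the same test, which is a call. Mir194-1 at -0.52 (-2.12 to 0.83), Mir208a at -0.63 (-2.37 to 0.81) and Mir499 at -0.76 (-2.69 to 0.77) rest on 5 to 14 counts a library. Their intervals leave room for no difference and for one as large as that of Mir208b.

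**Figure D3:**
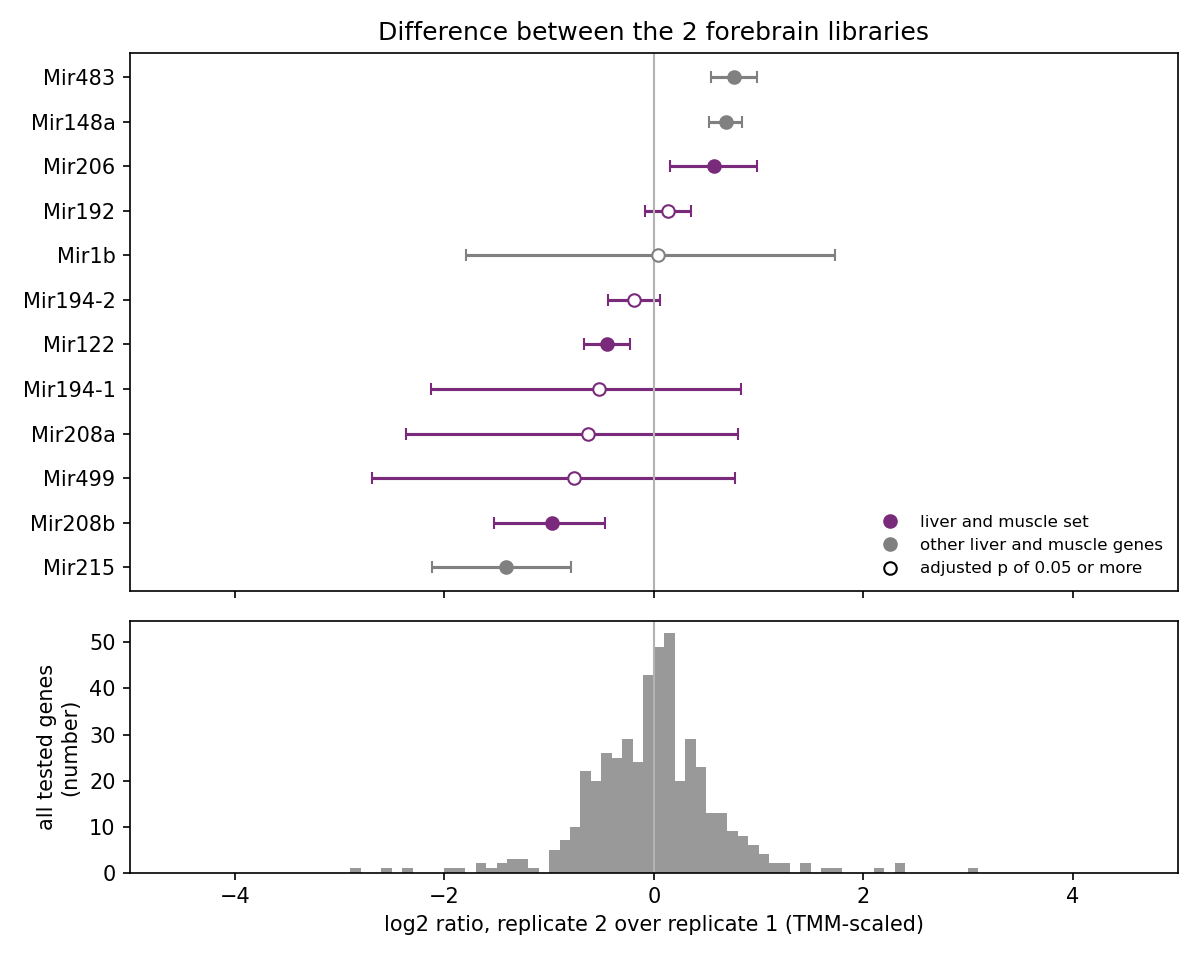
Log2 ratio of replicate 2 over replicate 1 (TMM-scaled) with 95% intervals for the tested genes of the liver and muscle set and for other liver and muscle genes (upper panel, filled where the adjusted p is under 0.05), above the number of all 466 tested genes at each ratio (lower panel). Mir208b at -0.97, Mir122 at -0.45 and Mir206 at 0.57 are the filled points of the set, and all lie within the spread of the tested genes.

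Of the other liver and gut genes listed, 3 were tested, and 2 of these were called higher and 1 lower in replicate 2, beside 23.4% called higher and 21.9% called lower over all tested genes. Mir215, the neighbour of Mir194-1 with the seed of Mir192, had 26 counts or 6.25 CPM in replicate 2 and 94 counts or 18.6 CPM in replicate 1. Its log2 ratio was -1.41 (-2.11 to -0.79), and the exact binomial test gave an adjusted p of 6.20e-06. Mir192 made up 92.6% of the summed counts of Mir192 and Mir215 in replicate 2 (89.3% to 95.1%) and 80.8% in replicate 1 (77.0% to 84.2%). These intervals do not overlap, and the difference itself was not tested. Mir148a, abundant in liver but present in many tissues, had 715 counts in replicate 2 and 597 in replicate 1, a log2 ratio of 0.69 (0.53 to 0.85). Mir483, in an intron of the fetal growth factor gene Igf2, had 393 counts in replicate 2 against 311 in replicate 1, and its log2 ratio was 0.76 (0.55 to 0.98). The adjusted p-values by the exact binomial test were 4.04e-17 for Mir148a and 1.09e-11 for Mir483. Mir802 had 3 counts in replicate 2 and 5 in replicate 1.

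Of the 5 other muscle genes listed, 4 had a row and 2 of these, Mir133a-2 and Mir133c, had 0 counts in both libraries. Mir1b had 6 counts in replicate 2 and 8 in replicate 1, a log2 ratio of 0.04 (-1.79 to 1.73) that was not called. It overlaps Mir1a-2 on the opposite strand over 72 bases and its own opposite strand held 0 reads in replicate 2 against 1 in replicate 1. Mir1a-2 is the listed gene without a row, so it has no level here.

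**Figure D4:**
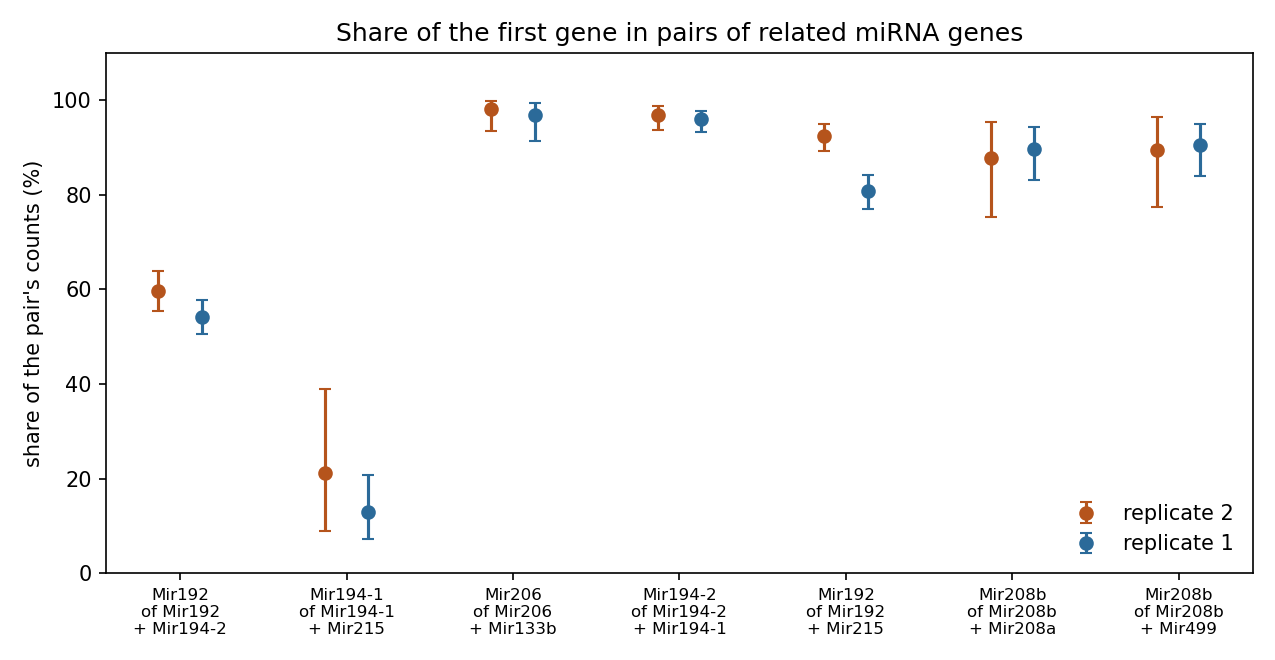
Share of the first gene in the summed gene-strand counts of each pair of related miRNA genes, in replicate 2 and replicate 1, with exact Clopper-Pearson 95% intervals. The share of Mir192 against Mir215 is 92.6% in replicate 2 and 80.8% in replicate 1 without overlap of the intervals, and the intervals of the other 6 pairs overlap.

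Embryonic tissue holds blood cells in its vessels. The 3 erythroid genes listed, Mir451a, Mir144 and Mir486, were all detected and summed to 240.5 CPM in replicate 2 and 305.9 CPM in replicate 1. Within them Mir451a was lower in replicate 2, with a log2 ratio of -0.50 (-0.64 to -0.36), and Mir144 higher, at 0.86 (0.60 to 1.12), both called by the exact binomial test. Mir486 was not called, with a log2 ratio of -0.31 (-0.74 to 0.11) and an adjusted p of 0.263 by that test. Beside these 2 calls among 3 genes stands the 45.3% called over all tested genes, so nothing particular to blood markers is read from them. The myeloid gene Mir223 was at 151 CPM in replicate 2 and 96.6 CPM in replicate 1. Its log2 ratio was 0.79 (0.62 to 0.96), and the exact binomial test called it higher in replicate 2, beside 23.4% of all tested genes. The part of blood cells in the differences of Mir122 and Mir208b was not tested.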

How the data were processed

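Small RNA of 2 forebrain pools was measured. The deposited tables hold raw read counts per gene, in a column without strand and a column for each strand, on assembly mm10 with GENCODE M4, per the file headers of the accompanying descriptions. How reads were trimmed, aligned and counted is not given in the sources used here. Of the stranded columns, that with the larger total was used as the gene strand. Rows of unassigned reads (multimapping, unmapped and outside genes) were left out of totals and tests. They held 43.3%, 15.2% and 2.82% of all reads in replicate 2 and 40.5%, 19.1% and 2.50% in replicate 1.

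Symbols, positions and hairpins came from GENCODE M21 (GRCm38) by gene identifier without its version, found for 1894 of 1973 genes, and arms from RefSeq. Shared stretches were sought among M21 miRNA genes on both strands. TMM factors came from edgeR 4.0.16 (R 4.3.3) over genes whose counts summed to 10 or more. The exact binomial test used scipy 1.17.1 and a threshold of 0.05, and was checked on simulated data. The simulated counts held counting error only, so that check says nothing of how the test behaves with spread between pools. Log2 ratios (replicate 2 over replicate 1) add 0.5 to each count, and their intervals come from exact Clopper-Pearson intervals. With a single group, no quasi-likelihood test was run.

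The genes and lists were chosen with earlier results of these data known. Named are the 10 genes, the listed liver, muscle and marker genes, and the gene nearest in level to each detected gene. Alternatives were unscaled totals, DESeq2 1.42.0 size factors, other count minimums, unstranded counts, all reads as the denominator and leaving out a replicate.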

Additional observations from a re-analysis of the deposited data

How the results depend on the processing

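Of 45 log2 ratios of the 8 tested genes under alternatives, 42 kept their sign and their side of the threshold, and the 3 exceptions all came with unscaled library totals, which shift every ratio by -0.14. Mir192 turned to -0.0069, Mir206 was not called at 0.43 (adjusted p 0.0771 by the exact binomial test), leaving 0 genes of the set called higher, and Mir194-2 was called at -0.33. Over all genes unscaled totals gave 67 calls higher and 155 lower, against 109 and 102 with TMM. For Mir122 and Mir208b the call held under each alternative run, among them DESeq2 size factors and, chosen after seeing the data, TMM over all genes. With all reads as the denominator, the liver and gut genes held 0.00828% and the muscle genes 0.00158%, since that denominator is larger by construction. With at least 10 counts in both libraries, 5 genes of the set were detected. The share of all miRNA genes at that minimum was not computed, so nothing is read from this number. Leaving out a replicate gives the value of the other library, which with 2 libraries says nothing about stability, and no test between libraries is then possible. Of 24 CPM values under the other alternatives, 15 stayed within 1 SD. The 9 that did not were the values with all reads as the denominator, and Mir192 with unstranded counts. Mir192 was then at 76.5 CPM, beside 77.9 CPM in the main setting with an SD of only 0.278 CPM. Depth limits Mir194-1, Mir208a and Mir499, and shared sequence limits the Mir1, Mir133 and Mir194 genes. No paired analysis was possible because both libraries belong to a single group.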
